A study of Mus musculus with 14 samples.

Results

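The Gadd45 family (Gadd45a, Gadd45b and Gadd45g) was described in supporting cells (SCs) of the mouse cochlea, in every library and every matched pair of libraries. The 3 genes were chosen by measured values of these same libraries, because Gadd45g was higher with compound E at P0 and not at P6, and they are 3 of the 35976 genes counted. The CompE to DMSO differences of the members at each age, and the change of those differences between the ages, are therefore given as a description, and nothing is read from a call of a member there. RNA was sequenced from EGFP+ SCs sorted from cochlear explants of Lfng-EGFP mice, whose reporter marks SCs through the Lfng gene, after 24 hours with 2 μM compound E (CompE) in DMSO or with DMSO alone. There were 4 CompE and 4 DMSO libraries at P0 (explants of P0-P1 pups) and 3 of each at P6. Every mouse carried the reporter, the controls included, and cochleae were pooled before the sort. CompE inhibits γ-secretase, the protease that releases the intracellular domain of Notch, and the comparisons ask how SCs of each age respond to the loss of Notch signaling.

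Gadd45 proteins are small nuclear proteins without enzymatic activity of their own that act by binding others. They bind and activate Map3k4, a kinase at the head of the p38 and JNK cascades, they bind cell cycle proteins (PCNA, the Cdk inhibitor p21 and Cdk1 with cyclin B), and they have been linked to active DNA demethylation through base excision repair. Gadd45a is a classic target of p53 after DNA damage, Gadd45b is an early response gene of NF-kB and TGF-beta signaling and of neuronal activity and also binds the JNK-activating kinase Map2k7, and Gadd45g is induced by cytokines and is found with proneural factors in differentiating neural progenitors.

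The genes lie on separate chromosomes of GRCm38. Gadd45a (ENSMUSG00000036390.8) is at chr6:67035096-67037457 on the minus strand, Gadd45b (ENSMUSG00000015312.9) at chr10:80930073-80932204 on the plus strand and Gadd45g (ENSMUSG00000021453.2) at chr13:51846678-51848468 on the plus strand. The longest transcript of each has 4 exons. Gadd45a overlaps E230016M11Rik, which is on the other strand and had 0 to 80 counts per library (at most 1.80 RPM, the reads-per-million value of a gene in its library). Whether strand was used in counting is not given in the sources used here, so reads in the shared stretch could belong to either gene. The other members overlap no annotated gene. The promoters, from 250 bases before to 50 bases after the start in RefSeq (GRCm38.p6), are printed 5′ to 3′ on each gene's own strand to show how alike the control regions of members with different behavior are in simple motifs. They are chr6:67037358-67037657 (minus), chr10:80929841-80930140 (plus) and chr13:51846425-51846724 (plus), and capitals mark the motifs that were found.
Gadd45a: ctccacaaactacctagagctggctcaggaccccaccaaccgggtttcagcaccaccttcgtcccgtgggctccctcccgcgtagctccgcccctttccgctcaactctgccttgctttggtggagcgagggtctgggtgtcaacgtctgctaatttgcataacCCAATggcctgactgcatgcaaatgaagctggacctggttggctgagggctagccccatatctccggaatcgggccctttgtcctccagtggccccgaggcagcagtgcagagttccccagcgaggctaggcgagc
Gadd45b: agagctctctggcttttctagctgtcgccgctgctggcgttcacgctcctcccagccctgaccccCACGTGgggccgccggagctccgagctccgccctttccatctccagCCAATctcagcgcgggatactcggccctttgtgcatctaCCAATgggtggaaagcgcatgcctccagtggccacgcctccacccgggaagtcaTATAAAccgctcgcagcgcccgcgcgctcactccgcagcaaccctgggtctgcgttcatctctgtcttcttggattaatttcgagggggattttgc
Gadd45g: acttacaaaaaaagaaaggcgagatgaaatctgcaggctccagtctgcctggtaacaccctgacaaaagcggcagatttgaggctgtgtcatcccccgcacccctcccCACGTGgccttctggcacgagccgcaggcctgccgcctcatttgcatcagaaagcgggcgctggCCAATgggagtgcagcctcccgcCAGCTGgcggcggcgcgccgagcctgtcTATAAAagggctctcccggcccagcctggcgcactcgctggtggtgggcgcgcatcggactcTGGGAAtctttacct

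The motifs searched on both strands were the CCAAT box, the E-box CACGTG, a second E-box with the letters CAGCTG, the TATAAA box, the letters TGGGAA at the core of RBPJ (Notch cofactor) binding, and TGACTCA as bound by AP-1. No match overlapped another. All 3 promoters held CCAAT, once in Gadd45a (first base at -86 from the start) and Gadd45g (-78) and at 2 places in Gadd45b (-139 and -100), as did 37.4% of the 32851 mouse promoters of the same length. CACGTG (7.15% of promoters) and TATAAA (13.6%) were found in Gadd45b, at -185 and -46, and in Gadd45g, at -142 and -27, and not in the window of Gadd45a. CAGCTG (16.3%) at -55 and TGGGAA (25.6%) at 36 bases after the start were found in Gadd45g alone of the members. TGACTCA (5.2%) was in none of these windows. The GC content of the windows was 61.0%, 62.0% and 62.3%, against a median of 52.7% over all promoters. A match describes letters in these windows and is not a bound site.

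Libraries held 19415066 to 44430063 counts on genes, and counts of the members ran from 119 to 10284. Per the labels each age has 3 batches of its own, and each batch holds both treatments, so age and batch cannot be told apart. Replicates 1 and 2 at P0 are batches 1 and 2, replicates 3 and 4 at P0 share batch 3, and each P6 replicate is a batch. SC markers were present in every library, with Sox2, a transcription factor of SCs, at 96.0 to 727 RPM, but hair cell (HC) markers were present too, and none of the 11 HC genes listed was at 0 throughout any group. Some libraries stood apart from the rest of their group. The P0 DMSO library of replicate 1 held 1144 RPM of Lfng, against 3164 to 3677 in the other 3, and at P6 both libraries of replicate 3 had the highest summed RPM of 7 macrophage and immune genes (77.7 with CompE and 33.8 with DMSO, against 1.98 to 10.9 in the other 4) and of 6 mesenchyme genes. Of the Notch target Hes5, P0 CompE replicate 2 held 65.4 RPM, against 1.98 to 9.36 RPM in the other P0 CompE libraries. P6 DMSO replicate 3 held 1.94 RPM of Hes5 and 1209 RPM of Lfng. P6 DMSO replicates 1 and 2 held 15.3 and 20.1 RPM of Hes5 and 2624 and 2221 RPM of Lfng. For the members, fitted values without these libraries are given at each age and for the change with age in the DMSO libraries. Values of the gene lists are given with no library left out. In bulk libraries, fewer cells that express a gene and less RNA of it per cell cannot be told apart. Nothing in the labels says that replicates were separate litters, so p-values measure the spread between these samples.

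At P0, Gadd45g, the member found with proneural factors, stood at 231.5, 42.9, 69.4 and 93.7 RPM in CompE replicates 1 to 4 and at 29.8, 5.38, 10.8 and 9.33 RPM in the DMSO libraries of the same numbers. Every CompE library was above every DMSO library, although replicate 1 was the highest and replicate 2 the lowest in both arms. The means were 109 ± 84.0 RPM with CompE and 13.8 ± 10.9 RPM with DMSO (SD, n = 4 each). Levels spread over 5.40-fold among the CompE libraries and 5.54-fold among the DMSO libraries, whereas the ratio within a pair was 7.65, 7.37, 6.19 and 9.58, on RPM with a pseudocount of 0.5. On the log2 scale these ratios averaged 2.93 ± 0.26 (SD, n = 4 pairs). So the library pairs differed in level far more than in the size of the rise. For the HC genes Atoh1 and Hes6, too, replicate 1 was the highest and replicate 2 the lowest in each arm, while replicates 3 and 4 of the DMSO arm stood in the other order than for Gadd45g.

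**Figure D1:**
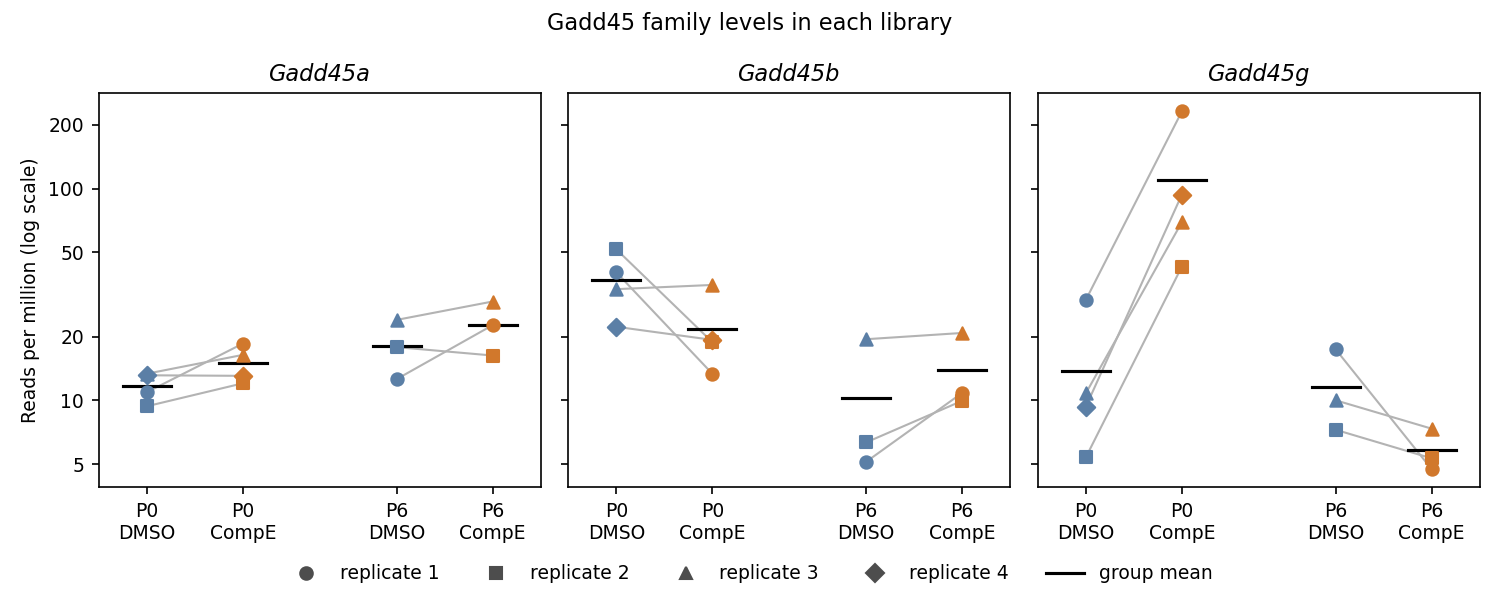
RPM (log axis) of each family member in each library, by age and treatment, with a marker shape for each replicate number, gray lines joining libraries of the same number and black bars for group means. Gadd45g lies at 42.9 to 231.5 with CompE at P0 and at 5.38 to 29.8 with DMSO, and at P6 all 3 lines fall.

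Gadd45b, the early response member, went the other way in most pairs at P0. It stood at 13.4, 18.9, 35.1 and 19.3 RPM in CompE replicates 1 to 4 and at 40.3, 51.7, 33.5 and 22.3 RPM in the DMSO libraries. The arms overlapped, since CompE replicate 3 lay above DMSO replicates 3 and 4. The means were 21.7 ± 9.36 RPM with CompE and 37.0 ± 12.3 RPM with DMSO (SD, n = 4 each). The within-pair log2 ratios were -1.56 and -1.43 in replicates 1 and 2 but 0.07 and -0.20 in replicates 3 and 4, which share batch 3. Within that batch only the replicate number ties a CompE to a DMSO library, so both of its ratios depend on the numbering. Thus the lower level with CompE came from batches 1 and 2, and in batch 3 the ratios as numbered were close to 0.

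Gadd45a, the p53 target, had the smallest fitted change of the members at P0. Its levels were 18.6, 12.1, 16.4 and 13.1 RPM in CompE replicates 1 to 4 and 10.9, 9.39, 13.4 and 13.2 RPM in the DMSO libraries. The means were 15.0 ± 3.00 RPM with CompE and 11.7 ± 1.90 RPM with DMSO (SD, n = 4 each), and the arms overlapped. Within pairs the log2 ratio was 0.74, 0.34, 0.29 and -0.01, so the largest value was that of replicate 1 and the value in replicate 4 was close to 0.

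At P6, Gadd45g was low in both arms, at 4.73, 5.33 and 7.36 RPM in CompE replicates 1 to 3 and at 17.4, 7.27 and 10.0 RPM in the DMSO libraries. All 3 pairs were lower with CompE, but the arms touched, since CompE replicate 3 lay just above DMSO replicate 2. The within-pair log2 ratios were -1.78, -0.42 and -0.42, with a mean of -0.87 ± 0.78 (SD, n = 3 pairs). Replicate 1 decided the size of the mean, and without its libraries the fitted log2 fold change moved from -0.98 to -0.43. Among the genes tested at both ages, 1.95% were higher in every P0 pair and lower in every P6 pair, the pattern that Gadd45g showed.

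Gadd45b at P6 stood at 10.9, 9.96 and 20.8 RPM in CompE replicates 1 to 3 and at 5.13, 6.34 and 19.5 RPM with DMSO. All 3 pairs were higher with CompE, by log2 ratios of 1.01, 0.61 and 0.10, the opposite direction to 3 of the 4 pairs at P0. In both arms the highest level was that of replicate 3, whose libraries carried the highest immune and mesenchyme sums. Their part in its level was not tested, and without that pair the fitted log2 fold change was 0.87 (SE 0.382) in place of 0.45 (SE 0.538). Gadd45a stood at 22.7, 16.3 and 29.3 RPM with CompE and at 12.6, 17.9 and 24.0 RPM with DMSO, also highest in replicate 3 of each arm. Its pairs were split, with log2 ratios of 0.82, -0.13 and 0.28. Without the pair of replicate 3 the fitted log2 fold change was 0.36 for Gadd45a, in place of 0.33, and -1.27 for Gadd45g.

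**Figure D2:**
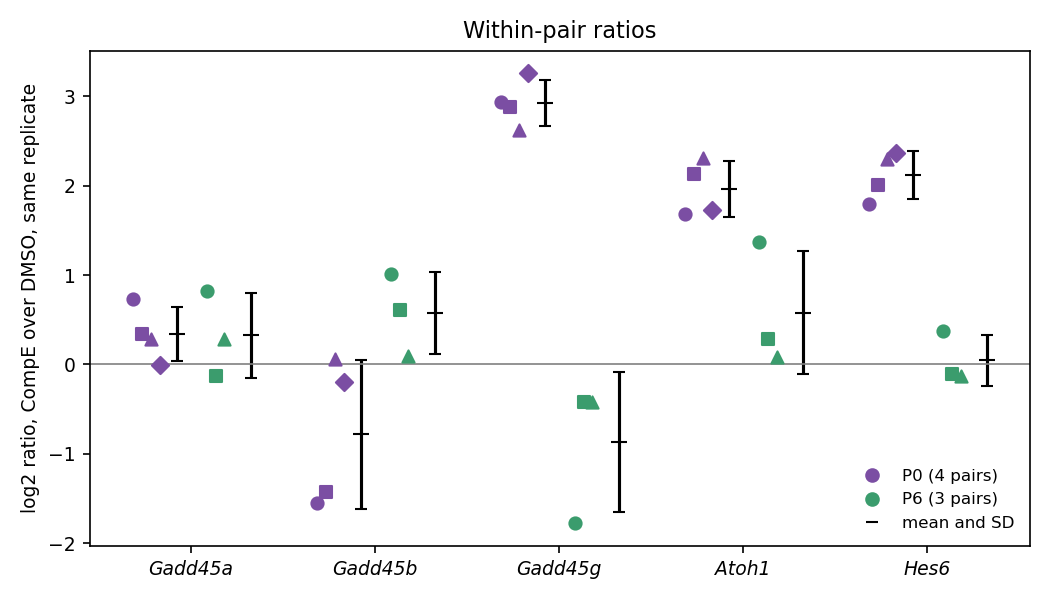
Log2 ratio of CompE to DMSO within each pair of libraries with the same age and replicate number (vertical axis, RPM with a pseudocount of 0.5), for the family and for the HC genes Atoh1 and Hes6, with P0 in purple and P6 in green and black bars for mean and SD. The 4 P0 values of Gadd45g lie between 2.63 and 3.26 and its 3 P6 values between -1.78 and -0.42, whereas Gadd45a lies between -0.01 and 0.74 at P0 and between -0.13 and 0.82 at P6.

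In the fit across all genes (edgeR, each age alone), a call needed an adjusted p no higher than 0.01 with a 2-fold change or more. At P0 the log2 fold change was 2.95 for Gadd45g (SE 0.587), -0.80 for Gadd45b (SE 0.328) and 0.31 for Gadd45a (SE 0.182), and 0 of the 3 members was called. Of the 15937 genes tested, 0.238% were called higher and 0.985% lower. When the fit held the replicate as a block, so that libraries were compared within pairs, the value for Gadd45g was the same to the second decimal (2.95) with an SE of 0.127, and it was called. In that fit 0.684% of the genes were called higher and 1.51% lower. Gadd45g was called as well by DESeq2, a second tool, which called 425 of 15937 genes (124 higher). It was also called by edgeR without the filter on low counts, which called 248 of 25863 genes (60 higher). Without both libraries of replicate 1, among them the DMSO library with low Lfng, the log2 fold change of Gadd45g was 2.98 (SE 0.330), that of Gadd45b was -0.59 (SE 0.335) and that of Gadd45a was 0.18 (SE 0.189), and Gadd45g was called. Without P0 CompE replicate 2, the CompE library with the highest Hes5, the log2 fold change of Gadd45g was 3.21 (SE 0.563). That of Gadd45b was -0.75 (SE 0.378) and that of Gadd45a was 0.39 (SE 0.193), and no member was called. Gadd45g was also 1 of the genes without overlap between the arms, which made up 9.88% of those tested, and of those higher in every pair, which made up 17.4%. The fit with the batch as a block called it too, with 334 of 15937 genes called (102 higher). In the edgeR fit with DESeq2 size factors and in the fit of all 14 libraries, Gadd45g was not called. When 1 library or 1 pair was left out, it was called only without P0 DMSO replicate 1 or without the pair of replicate 1. As the family was chosen on this contrast, nothing is read from these calls or from their absence.

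At P6 the fitted log2 fold changes were -0.98 for Gadd45g (SE 0.386), 0.45 for Gadd45b (SE 0.538) and 0.33 for Gadd45a (SE 0.295). No member was called, and neither was any other of the 15322 genes tested (0%) by edgeR, with 289 (1.89%) at an unadjusted p under 0.05, whereas DESeq2 called 11, no member among them. No member was without overlap between the arms, against 7.19% of all genes. Lower in every pair, as Gadd45g was, were 17.1% of the genes, and higher in every pair, as Gadd45b was, were 15.8%, so these signs alone are common at this n. The difference between the ages (P6 minus P0) in log2 fold change was -3.92 for Gadd45g (SE 0.807), 1.26 for Gadd45b (SE 0.644) and 0.03 for Gadd45a (SE 0.338). With the replicate block it was -3.84 for Gadd45g (SE 0.347). The family was chosen for this difference, so these values are a description and no call is given.

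Levels were next set side by side per length of exon (RPM per kilobase of exon, RPKM), which allows members to be compared. With DMSO at P0, Gadd45b was the leading member at 23.3 ± 7.77 RPKM, followed by Gadd45g at 11.8 ± 9.29 and Gadd45a at 6.64 ± 1.08 (SD, n = 4). Gadd45b led in 3 of the 4 libraries, and in replicate 1 it was level with Gadd45g, at 44.5% and 44.6% of the family's RPKM. Its highest share was 76.7%, in replicate 2. With CompE at P0, Gadd45g led in each library at 93.2 ± 71.6 RPKM, ahead of Gadd45b at 13.6 ± 5.89 and Gadd45a at 8.52 ± 1.70, and its share was 65.4 to 91.3%. The family's sum was 115 ± 69.9 RPKM with CompE and 41.7 ± 11.5 RPKM with DMSO.

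At P6 the members were closer together. With DMSO, Gadd45a (10.3 ± 3.24 RPKM), Gadd45g (9.87 ± 4.48) and Gadd45b (6.49 ± 5.00) did not differ beyond their spread (SD, n = 3). With CompE, Gadd45a stood at 12.9 ± 3.69 RPKM, Gadd45b at 8.74 ± 3.80 and Gadd45g at 4.95 ± 1.17. Here Gadd45a had the largest share in each of the 3 libraries (46.1 to 54.2%) and Gadd45g held 17.0 to 22.7%. The sum of the family was alike in both arms, at 26.6 ± 8.35 RPKM with CompE and 26.7 ± 7.15 RPKM with DMSO.

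**Figure D3:**
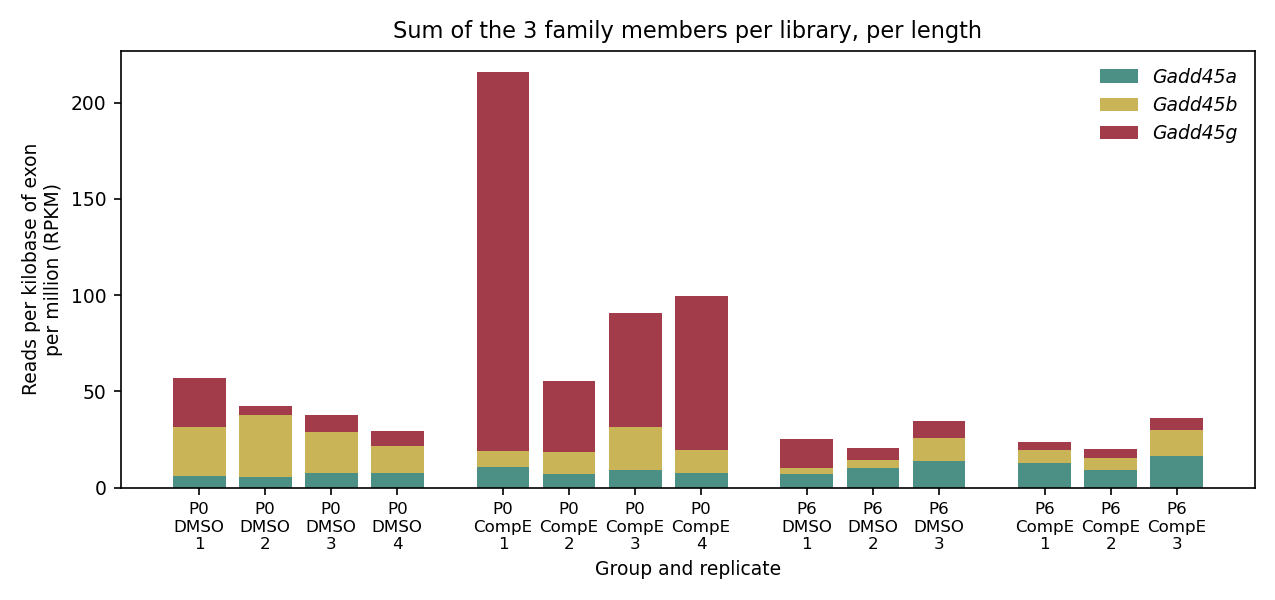
RPKM of the 3 members stacked for each library, by group and replicate number. Gadd45g makes up 65.4 to 91.3% of the bar in the P0 CompE libraries, Gadd45b leads in 3 of the 4 P0 DMSO libraries, and the P6 bars reach 20.1 to 36.0 RPKM in both arms.

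The change with age in the DMSO libraries was not used to choose the family, so Gadd45a and Gadd45b were tested there. Gadd45b stood at 5.13 to 19.5 RPM at P6 against 22.3 to 51.7 RPM at P0, and the ages did not overlap, as for 31.1% of all genes tested. Its log2 fold change was -1.78 (SE 0.478, edgeR adjusted p = 0.0165), which misses the threshold of 0.01. Without the P6 DMSO library of replicate 3, the one with the high immune and mesenchyme sums, it was -2.57 (SE 0.468, edgeR adjusted p = 0.0026) and Gadd45b was called lower. Without P6 DMSO replicate 1 or 2 its adjusted p in the edgeR fit was 0.0616 or 0.0716, without P0 DMSO replicate 1, the library with low Lfng, it was 0.0296, and from the 7 DMSO libraries alone it was 0.0389. Gadd45a leaned the other way, at 12.6 to 24.0 RPM against 9.39 to 13.4 RPM, with a log2 fold change of 0.70 (SE 0.237, edgeR adjusted p = 0.0476), and it was not called. Without P6 DMSO replicate 3 its log2 fold change was 0.50 (edgeR adjusted p = 0.168), and without P0 DMSO replicate 1 it was 0.64 (edgeR adjusted p = 0.101). In this comparison 3.74% of the genes were called higher and 3.38% lower. For Gadd45g, whose DMSO libraries were part of its choice, the log2 fold change was -0.15 (SE 0.552). It was 0.48 (SE 0.500) without P0 DMSO replicate 1, 0.07 without P6 DMSO replicate 2 and -0.02 without P6 DMSO replicate 3. Its DMSO levels at the 2 ages thus differed by less than their spread, and its mean with CompE at P6 was the lowest of the 4 groups.

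Genes that share a pathway with the family were counted from 7 lists. None of the 12 p38 and JNK cascade genes, 5 cell cycle binding partners, 15 genes of p53 and its targets, 8 genes of the unfolded protein and integrated stress responses, 13 immediate early genes, 9 NF-kB targets and 7 demethylation genes was called with CompE at P0, by edgeR with or without the replicate block or by DESeq2. Of all genes 1.22% were called in either direction by edgeR, so a count of 0 among the 68 distinct genes of these lists is near the background. An unadjusted p under 0.05 was found for 12 of the 68 and for 13.4% of all genes. Nor was any called by these tools at P6, with 0 of 66 at an unadjusted p under 0.05, where 4 of the 5 binding partners and 8 of the 9 NF-kB targets were tested. Median log2 fold changes at P0 were 0.01 for the cascade, 0.04 for the partners, 0.09 for p53 and its targets, 0.36 for the stress response, 0.38 for the immediate early genes, -0.17 for the NF-kB targets and 0.16 for demethylation, against 0.01 over all genes.

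The highest and lowest log2 fold changes at P0 in these lists show the range. In the kinase cascade they were 0.55 for Mapk12, a p38 kinase (SE 0.310), and -0.36 for Map2k6, the kinase that activates p38 (SE 0.218). Among the binding partners they were 0.74 for Cdkn1a, which encodes p21 (SE 0.192, edgeR adjusted p = 0.0731), and -0.35 for Cdk1, the mitotic kinase (SE 0.333). Cdkn1a was higher with CompE in 4 of 4 pairs, at 374 ± 32.3 RPM against 218 ± 61.7 RPM (SD, n = 4).

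Among p53 and its targets the ends were 1.68 for Pmaip1, the apoptosis gene Noxa (SE 0.501, edgeR adjusted p = 0.123), and -0.72 for Sesn1, a stress sensor that restrains mTORC1 (SE 0.142, edgeR adjusted p = 0.0217), in log2 fold change. In the stress response they were 0.49 for the pseudokinase gene Trib3 and -0.10 for Ppp1r15a, known as Gadd34, which shares the name prefix but not the family and directs dephosphorylation of eIF2α. The list of immediate early genes, which includes the heat shock genes Hspa1a and Hspa1b, ran from 0.86 for Hspa1a to -0.53 for Ier3. The NF-kB targets ran from 1.69 for Ccl2 to -1.16 for Cxcl1, both chemokines with 0.23 to 1.65 RPM on average at P0, and the demethylation genes ran from 0.36 for the glycosylase Mbd4 to -0.11 for the glycosylase Tdg.

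Between the ages, the list with the most calls in the DMSO libraries was that of the immediate early genes, the class to which Gadd45b belongs. Of the 13, 6 were called lower at P6, against 3.38% of all genes tested, and none higher. The list median was -1.25 in log2 fold change against -0.05 over all genes. The 2 positive values were those of the heat shock genes on this list, Hspa1a (0.41) and Hspa1b (0.71). Called were Fos (-2.55, SE 0.473, edgeR adjusted p = 0.00198), Jun (-1.25), Egr1 (-1.89), Dusp1 (-1.91), Zfp36 (-1.51) and Nr4a1 (-1.76). Fos and Jun form AP-1, Egr1 and Nr4a1 are transcription factors, Dusp1 is a phosphatase of p38 and JNK, and Zfp36 destabilizes mRNA. Summed over the list, P0 DMSO libraries held 1853 to 4823 RPM and P6 DMSO libraries 759 to 1083 RPM. These genes also respond to dissociation of tissue, which preceded the sort, and its part in the level of Gadd45b was not tested.

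Against 3.38% of all genes tested, 4 of the 15 genes of p53 and its targets were called lower at P6 with DMSO. These were Bbc3, the apoptosis gene Puma (-1.88), Sesn1 (-1.47), Plk2 (-1.37) and Btg2 (-1.02), in log2 fold change. Of the 15, 5 had positive values, among them Cdkn1a at 0.95 (SE 0.187, edgeR adjusted p = 0.00289), which missed the fold threshold. The other 10 of the 15 had negative values. Gadd45a, a target of the same factor, had a positive value but was not called (edgeR adjusted p = 0.0476). Of all genes tested 3.74% were called higher, and the only call in the NF-kB list was Bcl3, an IκB family member. Bcl3 rose by 4.47 on the log2 scale (SE 0.472, edgeR adjusted p = 2.78e-05), from 1.97 ± 1.01 RPM (SD, n = 4) to 42.8 ± 12.8 RPM (SD, n = 3). In the other 4 lists edgeR called no gene, DESeq2 called 1 among the binding partners (Cdk1) and 1 in the stress response (Ppp1r15a), and 3 genes of each list had an unadjusted p under 0.05, as did 35.5% of all genes.

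**Figure D4:**
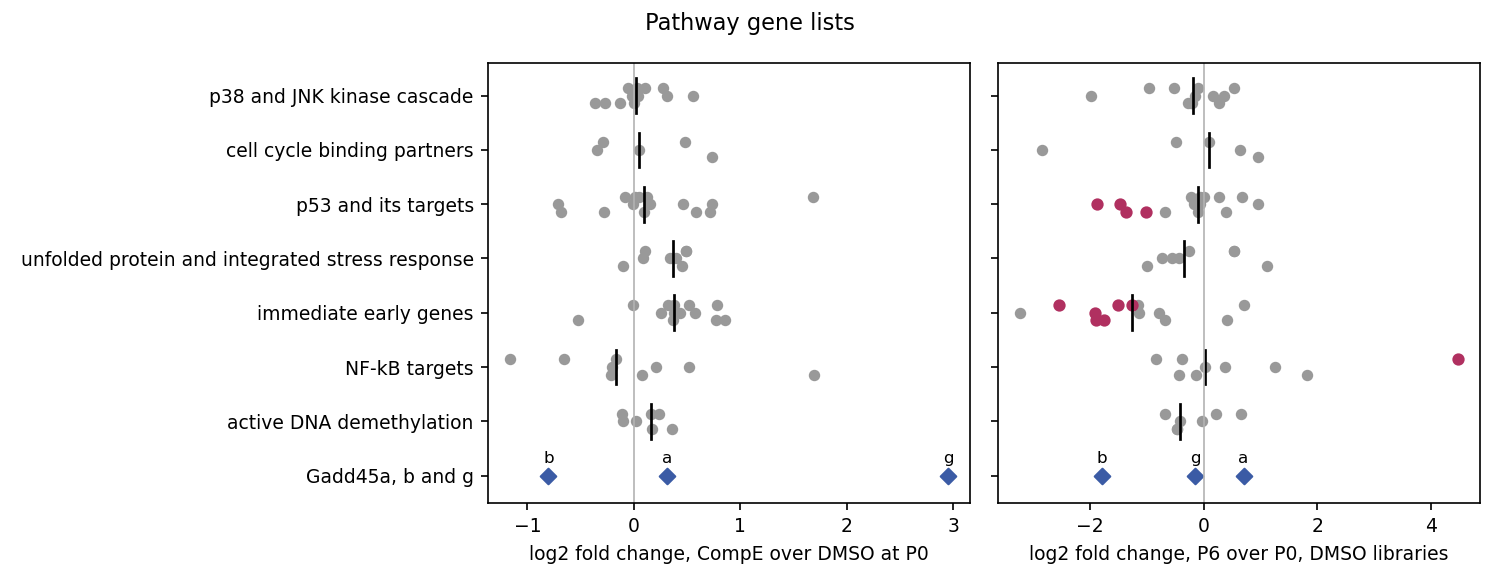
Log2 fold change (horizontal axis) of each tested gene of the 7 pathway lists and of the 3 family members, for CompE over DMSO at P0 (left) and P6 over P0 in DMSO libraries (right), with called list genes in red, list medians as black bars and members as blue diamonds. Gadd45g, chosen for its rise at P0, lies at 2.95 there, beyond every listed gene, and nothing is read from that place. On the right Gadd45b at -1.78 lies among the lowered immediate early genes.

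Notch targets differed between the arms at P0 as well, and the sum of HC genes leaned higher with CompE but overlapped. The sum of mesenchyme genes was also higher with CompE, but Lum made up most of it. Of the 5 Notch targets listed, 4 were called lower with CompE at P0 (Hes1 at -2.70, Hey1 at -1.65, Heyl at -3.36 and Nrarp at -3.11 in log2 fold change), and Hes5 was called too with the replicate block (-6.01). At P6 edgeR called 0, although all 5 had negative values with a median of -1.85 and an unadjusted p under 0.05, and DESeq2 called 3 (Hes1, Hes5 and Nrarp). The summed RPM of the 11 HC genes was 1478 to 3008 with CompE and 704 to 1696 with DMSO at P0, and 586 to 1229 and 452 to 1070 at P6. At P0 edgeR called 0 of these HC genes without the block (3 had an unadjusted p under 0.05, and DESeq2 called 2, Atoh1 and Hes6) and 3 with it. These were Atoh1, the factor that drives HC fate (1.94, adjusted p = 0.000122 in the edgeR fit), Hes6 (2.09, adjusted p = 7.82e-05 in the edgeR fit) and the HC survival factor Pou4f3 (1.13, adjusted p = 0.00606 in the edgeR fit). Of all genes, edgeR called 0.238% higher without the block and 0.684% with it. Without the block 13.4% had an unadjusted p under 0.05 in either direction. Of the 9 SC genes, edgeR called Heyl alone lower, and 4 under the block (Heyl, Hes5, Jag1 and Lfng), the last being the gene whose reporter set the sort. DESeq2 without the block called the same 4. Of all genes, edgeR called 0.985% lower, and 1.51% with the block. The summed RPM of the 6 mesenchyme genes was 1163 to 1329 with CompE and 903 to 1067 with DMSO at P0. Most of this sum was Lum, at 1051 ± 92.2 RPM with CompE and 754 ± 70.0 RPM with DMSO (SD). Among single genes, 9.88% of those tested were without overlap between the arms. Of the 6 mesenchyme genes 0 were called by edgeR or DESeq2 and 1 had an unadjusted p under 0.05. The log2 fold change of Lum was 0.44, those of the other 5 were negative, and none of the 6 was at 0 throughout a group. The part of HCs, mesenchyme or a shifted sort gate in the level of Gadd45g was not tested.

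In single libraries, Atoh1 at P0 stood at 305, 93.6, 159 and 219 RPM with CompE and at 94.5, 21.0, 31.5 and 66.0 RPM with DMSO. Hes6 stood at 373, 137, 240 and 295 RPM with CompE and at 107, 33.6, 48.4 and 56.8 RPM with DMSO. The within-pair log2 ratio of Gadd45g was above that of both genes in each of the 4 pairs, at 2.63 to 3.26 against 1.69 to 2.31 for Atoh1 and 1.79 to 2.37 for Hes6. Gadd45g was chosen for its rise at P0, so this order is a description and nothing is read from it. At P6 the ratios of Atoh1 were 1.37, 0.29 and 0.08, positive in the same 3 pairs in which Gadd45g was lower with CompE. Those of Hes6 were 0.38, -0.11 and -0.13, so that Hes6 and Gadd45g were both lower with CompE in replicates 2 and 3. The pair with the highest P6 ratio of Atoh1, replicate 1, had the lowest ratio of Gadd45g. That rests on 1 pair, since the Gadd45g ratio was -0.42 in both replicates 2 and 3.

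**Figure D5:**
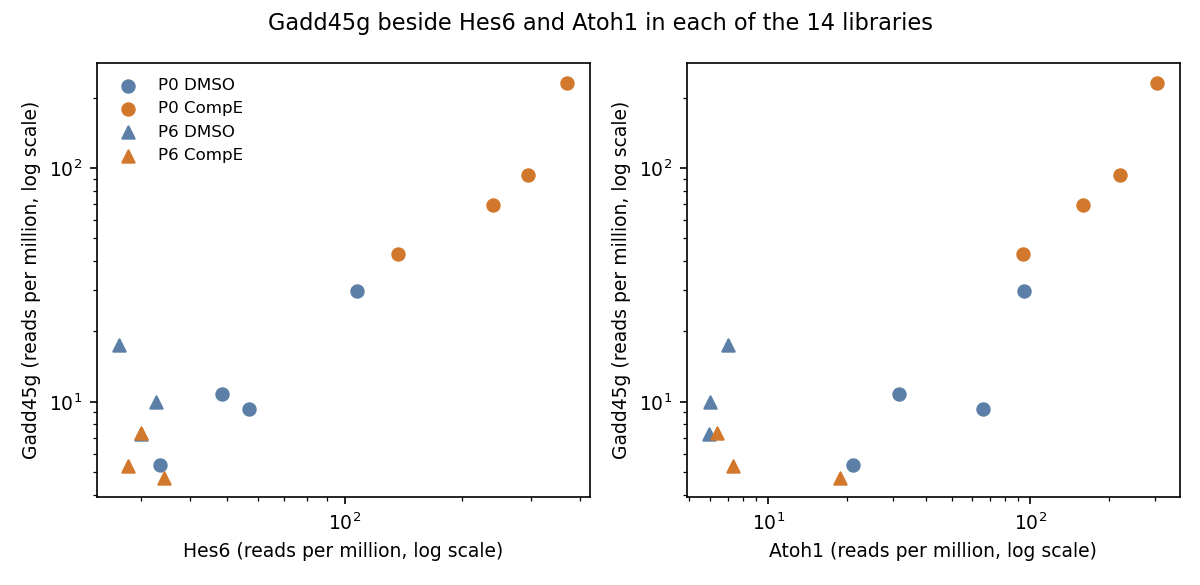
Gadd45g (vertical) against Hes6 and Atoh1 (horizontal) in each of the 14 libraries, all in RPM on log axes, with circles for P0 and triangles for P6, orange for CompE and blue for DMSO. The P0 libraries rise together, from 5.38 RPM of Gadd45g at 33.6 RPM of Hes6 to 231.5 at 373, and the P6 libraries reach no more than 17.4 RPM of Gadd45g.

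The genes whose pattern was most like that of Gadd45g were ranked by Pearson's r of log2(RPM + 0.5) over the 14 libraries, among the 10673 other genes that averaged 10 RPM or more in some group. These points share batches, ages and treatment, so r is a description. The first 10 were Tph1 (0.96), which makes serotonin outside the brain, Hes6 (0.94), Lrrc73 (0.93), Wee1 (0.92), the kinase that holds Cdk1 inactive, Tom1l2 (0.92), Insm1 (0.92), a zinc finger factor of young outer HCs and neuroendocrine cells, the mitochondrial protease gene Lactb (0.91), the kinase gene Prkx (0.91), P2rx3 (0.91), an ATP-gated channel, and Fam110a (0.91). Tph1, Lrrc73 and Insm1 reached 10 RPM only in the P0 CompE group, where Gadd45g is high, so for these 3 the filter itself favors a like pattern. Atoh1 was at rank 71 with an r of 0.83. Insm1 went from a mean of 7.10 RPM with DMSO to 46.0 RPM with CompE at P0 and lay at 1.77 and 1.89 RPM at P6, and Tph1 went from 1.80 to 13.3 RPM at P0. The other family members were far from Gadd45g, with an r of -0.17 for Gadd45a and 0.11 for Gadd45b over 14 libraries. Over the 8 P0 libraries alone, r with Gadd45g was 0.73 for Gadd45a and -0.69 for Gadd45b, and it was 0.99 for Hes6 and 0.96 for Atoh1.

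Genes most like Gadd45a were Eef2k (r = 0.93), the kinase of translation elongation factor eEF2, Aftph (0.90), Furin (0.90), a proprotein protease, the DNA ligase gene Lig1 (0.89) and Arfgap3 (0.89). Those most like Gadd45b were Ext1 (0.90), which builds heparan sulfate chains, the GTPase gene Rab23 (0.89), Rundc3b (0.89), Pitpnc1 (0.88) and the adaptor gene Gab2 (0.87). Eef2k had means of 36.4 and 40.4 RPM at P0 and 47.2 and 54.8 RPM at P6 (DMSO and CompE), with a larger difference between ages than between treatments. Gab2 had means of 51.3 and 37.6 RPM at P0 and 16.5 and 21.2 RPM at P6 (DMSO and CompE), lower with CompE at P0 and higher at P6 as Gadd45b was. No gene was shared between the lists of the 3 members. The lists are short and r between members was -0.34 to 0.11 over the 14 libraries, so this adds nothing beyond those values.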

How the data were processed

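Bulk RNA-seq of sorted Lfng-EGFP+ SCs was analysed in 14 libraries. The authors trimmed the reads with Trim Galore 0.6.0 and cutadapt 1.15 and mapped them with STAR to GRCm38, and they deposited raw counts per gene in a table for each age, without normalization or filters. The submitters' processing notes give STAR 2.7.0f. The annotation release and strandedness are not given in the sources used here. Libraries were amplified without molecular identifiers, so reads are not independent molecules.

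RPM is each deposited count over the total of its library, and RPKM with the union of GENCODE exons. Log2 fold changes were fitted with edgeR 4.0.16 in R 4.3.3 (TMM, filterByExpr with a minimum count of 10, glmQLFit and glmQLFTest, Benjamini-Hochberg over all genes tested). Standard errors are the log2 fold change over the root of the quasi-likelihood F. Treatment was the one term in the fit of each age, and the age comparison and the interaction used all 14 libraries. DESeq2, the tool of the authors (version 1.42.0 here), other scalings, no filter, blocks, other thresholds and leaving out libraries were alternatives. Scripts were tested on simulated data. Totals of 19415066 to 44430063 counts per library make the spread between libraries the limit of precision.

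Groups, replicate numbers and batches are from the labels. Deviations from the group means of CompE and DMSO libraries with the same number correlated by 0.22 to 0.543 at P0 and 0.355 to 0.693 at P6. Libraries of different numbers were not compared in this way, and those of 1 number also share a batch. The correlations therefore cannot show that the numbers mark true pairs. Libraries of 1 number were taken as a pair under the block. The members and lists were chosen with earlier results of these data known. Named are the 3 members, the called genes of each list with its largest rise and fall at P0, and the 10 genes most like Gadd45g and 5 most like each other member. Atoh1, Hes6, Sox2, Lfng and Pou4f3 were named beyond this as markers.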

Additional observations from a re-analysis of the deposited data

Results flagged for a closer look

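The mean within-pair log2 ratio of Gadd45g at P6 was -0.87 (lower with CompE in 3 of 3 pairs), opposite to that at P0 (2.93, higher in 4 of 4 pairs). Every pair of one age moved one way and every pair of the other age the opposite way. The family was chosen for this pattern, so no call on the difference is given, and it was not tested in libraries that the choice did not use. Of 9 groups of 4 values examined for a single value far from the others, 0 had one, where chance gives about 1 in 20.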

How the results depend on the processing

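The direction of the fitted value of Gadd45g with CompE held at each age under every alternative run, as did that of Gadd45b at both ages. At P0 the log2 fold change of Gadd45g was 2.34 to 3.59 when libraries or pairs were left out, lowest without CompE replicate 1 and highest without DMSO replicate 1, and at P6 that of Gadd45b was 0.069 to 1.24. Genes called at P0 numbered 195, and 617 when the threshold was 0.05 with no fold needed, 350 with the replicate block that compares within pairs, 425 with DESeq2, 334 with the batch as a block, 117 in a fit of all 14 libraries and 1 to 225 when libraries were left out, with 80 without CompE replicate 3, 84 without CompE replicate 4, 111 and 113 without DMSO replicates 2 and 4, and 69, 44 and 1 without the pairs of replicates 2, 3 and 4. The share of higher calls was 19.5%, and 31.1% with the block, 30.5% with the batch and 33.2% at 0.05. At P6, DESeq2 called 11 genes and edgeR 0. For the interaction, edgeR called 0 genes (811 at an unadjusted p under 0.05), and genes called numbered 34 with DESeq2, 16 with the replicate block, 2 at 0.05, 1 without the filter and 0 to 2 when libraries were left out (2 without P0 DMSO replicate 3, 1 without P6 DMSO replicate 1). Between the ages with DMSO, 1216 genes were called, and 1918 with DESeq2, 3840 at 0.05, 727 from the 7 DMSO libraries alone and 804 (without P6 DMSO replicate 2) to 1260 when libraries were left out. There Gadd45b was -1.79 with DESeq2 (adjusted p = 0.000751, called) and -2.57 to -1.46 when libraries were left out. The causes were not tested. Of the 10 genes most like Gadd45g, 4 remained by Spearman's rho and 3 over the 8 P0 libraries alone. With the longest transcript as its length, Gadd45a was 12.3 and 9.57 RPKM at P0 and 18.6 and 14.8 RPKM at P6 (CompE and DMSO). Depth was not varied, and the fewest counts behind a member's level were 119.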
